A study of Mus musculus with 8 samples.

Results

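The genes described here encode the NF-κB transcription factor subunits (Nfkb1, Nfkb2, Rel, Rela and Relb) and the IκB proteins that bind them (Nfkbia, Nfkbib, Nfkbie, Nfkbiz and Bcl3). They were chosen by name, and all 10 were found among the 36163 gene names of the array, on 14 of its 55681 probes. RNA came from whole lungs of C57BL/6 mice that had received lipopolysaccharide (LPS), a bacterial outer-membrane component, 12 h earlier. One group, 4 mice, carried a lung-specific knockout of Ggps1, which encodes geranylgeranyl diphosphate synthase, the enzyme that makes a lipid anchor for many small GTPases. The other group, 4 mice, was wild type. The promoter or Cre line behind the knockout, the ages and the LPS dose are not stated in the labels. Lungs without LPS were not analysed here, and every value compares genotypes under LPS.

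NF-κB proteins act as dimers. In resting cells the classical IκB proteins, encoded by Nfkbia, Nfkbib and Nfkbie, hold dimers in the cytoplasm, and Toll-like receptor signals lead to phosphorylation and destruction of IκB, so that the dimers reach the nucleus. Nfkb1 and Nfkb2 encode precursors that are processed to p50 and p52, while Rela, Relb and Rel encode subunits with an activation domain. Nfkbiz and Bcl3 encode nuclear IκB proteins that bind p50 or p52 dimers on chromatin and alter which genes they switch on. Several of these genes are themselves NF-κB targets, and in LPS-exposed lung their mRNA is known to be induced in immune, epithelial and endothelial cells. Much of the control of this pathway lies in protein decay and nuclear entry, which mRNA levels do not show.

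Each mouse had its own single-colour array, all 8 on 1 slide, with the knockout samples in slide row 2 and the wild-type samples in row 1, so position on the slide and genotype cannot be told apart. Between 58.1% and 65.3% of spots were well above background. The percent was 59.8 ± 1.5 in knockout and 63.6 ± 1.8 in wild-type samples (n = 4 each, SD, exact permutation test, p = 0.0571). The percent of probes at the scanner's surrogate value, given to signals not distinguished from background, was 23.2 ± 1.7 in knockout and 17.4 ± 2.2 in wild-type samples (n = 4 each, SD; exact permutation test, p = 0.0286, which is the smallest p possible with 4 against 4). Levels are given as log2 signal minus the array's own 75th percentile of log2 signal, and differences as knockout minus wild-type of that quantity. Ggps1 itself read 1.22 to 1.32 in knockout lungs and 1.26 to 1.40 in wild-type lungs at its brightest probe (difference -0.06 ± 0.068, SE; limma, adjusted p = 0.613). Another Ggps1 probe read -0.49 to -0.16 in knockout and -0.56 to -0.45 in wild-type lungs. The dimmest read -2.49 to -1.93 in knockout and -2.38 to -1.87 in wild-type lungs. The deleted stretch of Ggps1 is not stated in the labels, so these probes do not check the labels. Whole lung RNA was measured, in which fewer cells of a type and less RNA per cell cannot be told apart.

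No NF-κB or IκB gene passed the test between genotypes. Of the 9 that were measurable, 8 had a lower mean in knockout lungs and 1, Nfkbia, a slightly higher one that changed sign with other scalings. Their median difference was -0.28, against -0.03 over all 24469 genes tested, of which 54.3% were lower in knockout lungs. The largest differences among the 9 were those of Nfkbiz and Nfkbib, at -0.45 each. At an adjusted p under 0.05 (limma, Benjamini-Hochberg over all genes tested) 0 of the 9 were called, beside 15 of all genes, or 0.0613%. Of those 15 genes, 8 rose and 7 fell, or 0.0327% and 0.0286% of the genes tested. That background count was 1 without knockout replicate 1, knockout replicate 2 or wild-type replicate 2, 2 without wild-type replicate 1 and 3 without wild-type replicate 3. In none of the 9 did the 4 knockout values lie apart from the 4 wild-type values, which happened for 15.3% of all genes. At an unadjusted p under 0.05, Nfkb2 and Nfkbib were lower, beside 13.4% of all genes lower and 10.2% higher by that measure. This count of 2 was 5 without wild-type replicate 1, 4 without knockout replicate 2, and 1 without knockout replicate 1, 3 or 4 or wild-type replicate 2 or 4. It was also 1 when the probes of a gene were averaged, where Nfkbib differed by -0.04. The 13.4% and 10.2% belong to the main fit, and the shares of all genes under these alternatives are not given.

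**Figure D1:**
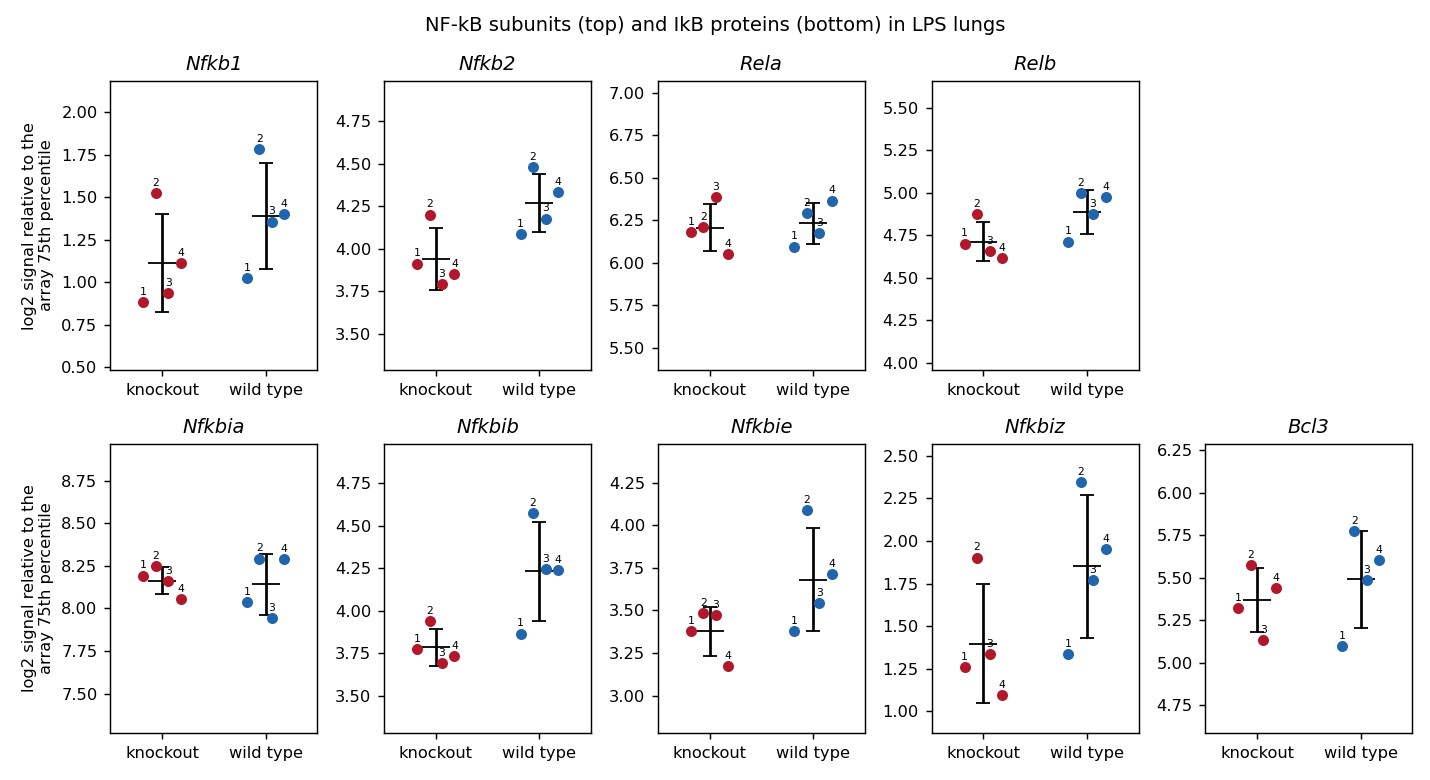
Log2 signal minus the array's 75th percentile for the 4 measurable NF-κB subunit genes (top row) and the 5 IκB genes (bottom row), knockout left of wild type. Points are mice with their replicate number, horizontal lines are means, bars are SD (n = 4 per group), and every panel spans the same number of log2 units. The groups overlap in all 9 panels, and replicate 2 is the highest point of its group in all panels except Rela.

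Of the subunits, all 4 that were measurable had lower means in knockout lungs, by a median of -0.23. This median was -0.14 without wild-type replicate 2. Rela, whose product p65 forms the classical dimer with p50, was nearly equal between genotypes. It read 6.18, 6.21, 6.39 and 6.05 in knockout replicates 1 to 4, against 6.10, 6.29, 6.18 and 6.37 in wild-type replicates 1 to 4. The 2 sets of values cover almost the same range. The difference was -0.03 ± 0.098 (SE; 95% interval -0.25 to 0.20; limma, adjusted p = 0.896), and its sign turned with quantile normalization (0.0088) and in the authors' deposited value table (0.0084). Leaving out knockout replicate 4 or wild-type replicate 4 also turned it, to 0.03 and 0.02.

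Nfkb1, the gene of the p105 precursor and p50, was read by a pair of probes. The brighter one (mm9 chr3:135254550-135254609, minus strand) read 0.88, 1.52, 0.94 and 1.11 in knockout replicates 1 to 4 and 1.02, 1.78, 1.36 and 1.40 in wild-type replicates 1 to 4. Replicate 2 stood highest in both groups, and only wild-type replicate 2 lay above the knockout range. The difference was -0.28 ± 0.19 (SE; 95% interval -0.72 to 0.17; limma, adjusted p = 0.405). The probe nearer the end of the transcript (chr3:135247621-135247680) gave -0.26 ± 0.20 (SE).

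Nfkb2, the gene of the p100 precursor and p52, had the smallest p among the subunits. Its probe crosses a splice junction, since its 60 bases lie within a 140-base stretch of the genome (mm9 chr19:46386146-46386285, plus strand), and it is shown because the Nfkb2 result rests on it alone. The stretch of 250 bases before the most upstream of 3 Nfkb2 starts (RefSeq, GRCm38.p6, chr19:46304487-46304736, plus strand) follows, with matches to the κB consensus, the sequence that NF-κB dimers bind, in capitals.
Nfkb2 probe: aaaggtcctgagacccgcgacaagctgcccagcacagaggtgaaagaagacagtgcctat
Nfkb2 promoter: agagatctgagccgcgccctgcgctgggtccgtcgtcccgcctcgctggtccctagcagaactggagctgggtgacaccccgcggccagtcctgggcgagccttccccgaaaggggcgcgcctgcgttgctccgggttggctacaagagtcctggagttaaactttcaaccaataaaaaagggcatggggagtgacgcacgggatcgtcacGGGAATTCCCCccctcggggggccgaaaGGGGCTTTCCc

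The capitals hold a pair of overlapping matches, at bases -39 to -30 and -38 to -29 from the start, and 1 more at -11 to -2. Nfkb2 read 3.91, 4.20, 3.79 and 3.85 in knockout replicates 1 to 4. It read 4.09, 4.48, 4.18 and 4.33 in wild-type replicates 1 to 4. Knockout replicate 2 exceeded wild-type replicates 1 and 3, and the other 3 knockout values lay below all 4 wild-type values. The difference was -0.33 ± 0.12 (SE; 95% interval -0.61 to -0.05), or 1.26-fold, and did not pass (limma, adjusted p = 0.164). Of all genes tested, 16.9% had a smaller p.

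Relb encodes the partner of p52 in the non-canonical pathway. It read 4.70, 4.87, 4.66 and 4.62 in knockout replicates 1 to 4 and 4.71, 5.0, 4.87 and 4.97 in wild-type replicates 1 to 4 (mm9 chr7:20191722-20191781, minus strand). Wild-type replicate 1 sat within the knockout range and the other wild-type values at its top or above it. The difference was -0.18 ± 0.094 (SE; 95% interval -0.39 to 0.04; limma, adjusted p = 0.292), and a second probe, which starts at transcript base 1942 and overlaps the one at base 1993, gave -0.20 ± 0.09 (SE).

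Rel, the gene of c-Rel, a subunit used chiefly by lymphocytes and myeloid cells, was not measurable by its single probe on chromosome 11. The probe was not well above background on any of the 4 knockout arrays and was above it only in wild-type replicate 2. It was not tested, and no fold is given, because the lower bound that background allows is under 1. Its dim readings were -7.10, -5.66, -6.60 and -7.25 in knockout and -5.48, -4.76, -5.96 and -5.84 in wild-type replicates 1 to 4.

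Of the 5 genes of IκB proteins, 4 had lower means in knockout lungs, and their median was -0.30. It was -0.17 without wild-type replicate 2 and -0.12 when the probes of a gene were averaged, a change that comes from Nfkbib alone among the IκB genes, as the other 4 have 1 probe each. Nfkbia encodes IκBα, the inhibitor that is destroyed first and made again within the NF-κB feedback loop. Its probe (mm9 chr12:56590945-56591440, minus strand) crosses a splice junction, and both it and the 250 bases before the gene's start (RefSeq, GRCm38.p6, chr12:55492648-55492897, minus strand) are shown because Nfkbia is the textbook NF-κB target of the set. Capitals mark the κB consensus match, at -29 to -20.
Nfkbia probe: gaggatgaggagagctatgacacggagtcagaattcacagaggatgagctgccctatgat
Nfkbia promoter: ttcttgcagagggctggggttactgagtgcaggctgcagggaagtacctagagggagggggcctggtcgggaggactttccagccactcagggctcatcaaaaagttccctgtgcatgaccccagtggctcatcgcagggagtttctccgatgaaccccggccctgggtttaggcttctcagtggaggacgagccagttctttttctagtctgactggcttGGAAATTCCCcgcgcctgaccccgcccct

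Nfkbia did not separate the genotypes. It read 8.19, 8.25, 8.16 and 8.05 in knockout replicates 1 to 4 and 8.04, 8.29, 7.94 and 8.29 in wild-type replicates 1 to 4. All knockout values lay inside the wild-type range, and the wild-type values spread more widely (SD 0.18) than the knockout values (SD 0.08). The difference of 0.02 ± 0.10 (SE; 95% interval -0.21 to 0.26; limma, adjusted p = 0.914) was negative with normexp background correction, quantile normalization, median centring and the deposited value table, at -0.0054, -0.03, -0.03 and -0.04. It was also negative without knockout replicate 2 (-0.0056), wild-type replicate 1 (-0.01) or wild-type replicate 3 (-0.04).

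Nfkbib encodes IκBβ, an inhibitor that is replaced more slowly than IκBα. It was the gene of the family with the smallest p and also the one whose probes gave opposite signs. Of its 3 probes, those at transcript bases 694 and 1084 are shown. The probe at base 694 lies across a splice junction (mm9 chr7:29545252-29546647, minus strand), and the one at base 1084 lies within 1 block (chr7:29544160-29544219).
Nfkbib probe at base 694: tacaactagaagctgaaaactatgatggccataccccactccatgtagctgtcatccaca
Nfkbib probe at base 1084: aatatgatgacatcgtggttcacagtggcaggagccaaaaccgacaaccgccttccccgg

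The probe at base 1084, the brightest, read 3.78, 3.94, 3.69 and 3.74 in knockout replicates 1 to 4. It read 3.87, 4.57, 4.25 and 4.24 in wild-type replicates 1 to 4. Wild-type replicate 1 lay below knockout replicate 2, and the other 3 wild-type values were above all knockout values. The difference was -0.45 ± 0.15 (SE; 95% interval -0.78 to -0.11), or 1.36-fold, and did not pass (limma, adjusted p = 0.128, and 0.0902 to 0.246 with 1 sample left out). The probe at base 694 read 1.55, 1.84, 1.75 and 1.51 in knockout and 1.77, 2.36, 1.95 and 2.04 in wild-type replicates 1 to 4. Wild-type replicate 1 was again the one that reached into the knockout range. The difference was -0.37 ± 0.14 (SE; limma, adjusted p = 0.174 over the 33876 probes tested). Of these probes, 0.0649% passed the threshold, and 0 of the 13 probes of the family did.

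The Nfkbib probe nearest the end of the transcript, at base 1885 (mm9 chr7:29543270-29543329), ran the other way. It read 1.65, 1.86, 2.15 and 1.36 in knockout replicates 1 to 4 and 1.31, 1.07, 0.46 and 1.45 in wild-type replicates 1 to 4. Knockout replicate 4 lay below wild-type replicate 4, and the remaining 3 knockout values stood above all wild-type values. The difference was 0.69 ± 0.24 (SE; 95% interval 0.12 to 1.25; limma, adjusted p = 0.155 over all probes), and it was between 0.63 and 0.72 with normexp background correction, quantile normalization, median centring and the deposited value table, settings added for this probe after its values were seen. With the 3 probes averaged, the Nfkbib difference was -0.04.

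Set against each other within an array, these probes separated the genotypes. The reading at base 1084 minus that at base 1885 was 2.13, 2.08, 1.54 and 2.37 in knockout replicates 1 to 4. In wild-type replicates 1 to 4 it was 2.56, 3.50, 3.79 and 2.80, and the groups did not overlap. The reading at base 1885 minus that at base 694 did not overlap either (-0.14 to 0.40 in knockout and -1.50 to -0.47 in wild-type lungs), whereas the reading at base 1084 minus that at base 694 overlapped, with a shift between genotypes of -0.08. Of the 14800 pairs of probes that shared a gene name, 13.1% had groups that did not overlap in this way. Opposite signs with both probes at an unadjusted p under 0.05 were found in 74 pairs, or 0.5%. The Nfkbib pair was singled out after its values were seen, so these shares describe it and do not test it. The groups stayed apart in both comparisons with each of the 4 other scalings named.

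In the RefSeq table of GRCm38.p6, the Nfkbib gene overlaps Ccer2, which the array files call Gm6537. The probe for Gm6537 was well above background on 0 knockout arrays and 1 wild-type array and was not tested. Which RNA the probe at base 1885 reads was not tested. The 250 bases before the Nfkbib start (RefSeq, GRCm38.p6, chr7:28766645-28766894, minus strand) are shown in contrast to those of Nfkbia and Nfkb2, since they hold no match to the κB consensus.
Nfkbib promoter: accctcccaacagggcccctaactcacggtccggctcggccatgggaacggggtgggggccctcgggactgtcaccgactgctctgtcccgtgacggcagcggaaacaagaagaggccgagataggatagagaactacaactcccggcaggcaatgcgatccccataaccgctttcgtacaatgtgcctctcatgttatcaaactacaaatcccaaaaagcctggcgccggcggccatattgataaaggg

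**Figure D2:**
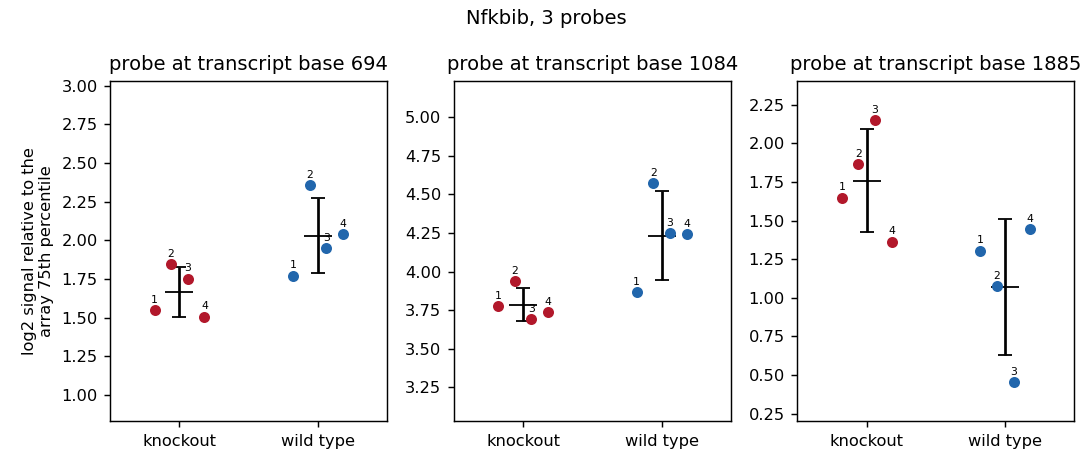
Log2 signal minus the array's 75th percentile for the 3 Nfkbib probes in transcript order, knockout left of wild type, with points for mice (replicate number above), lines for means and bars for SD (n = 4 per group). The probes at bases 694 and 1084 have lower knockout means and the probe at base 1885 a higher one, by 0.69. Levels are not comparable between panels.

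Nfkbie encodes IκBε, the third of the classical inhibitors. It read 3.38, 3.49, 3.47 and 3.17 in knockout replicates 1 to 4 and 3.38, 4.09, 3.55 and 3.71 in wild-type replicates 1 to 4 (mm9 chr17:45700000-45700059, plus strand). The knockout values kept within a narrow range, while wild-type replicate 2 stood well above the rest. The difference was -0.30 ± 0.16 (SE; 95% interval -0.67 to 0.06; limma, adjusted p = 0.278).

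Among the nuclear IκB proteins, Nfkbiz encodes IκBζ, which is induced by LPS and is needed for part of the secondary response, Il6 and Lcn2 included. It read 1.26, 1.90, 1.33 and 1.1 in knockout replicates 1 to 4 and 1.33, 2.35, 1.77 and 1.95 in wild-type replicates 1 to 4 (mm9 chr16:55817859-55817918, minus strand). Replicate 2 was again highest in each group, and knockout replicate 2 lay above wild-type replicates 1 and 3. The difference was -0.45 ± 0.24 (SE; 95% interval -1.02 to 0.11; limma, adjusted p = 0.295), and its interval was the widest of the 9 genes.

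Bcl3, the other nuclear member, works with p50 and p52 homodimers. It read 5.32, 5.57, 5.13 and 5.44 in knockout replicates 1 to 4 and 5.10, 5.77, 5.49 and 5.60 in wild-type replicates 1 to 4 (mm9 chr7:20393826-20393885, minus strand). The lowest single value belonged to a wild-type mouse. The difference was -0.12 ± 0.16 (SE; 95% interval -0.49 to 0.24; limma, adjusted p = 0.660). A coding neighbour of Bcl3 on chromosome 7 in the RefSeq table is Cblc, a ubiquitin ligase gene of the CBL family and 1 of the 8 genes that rose (0.82 ± 0.088, SE; limma, adjusted p = 0.0396).

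**Figure D3:**
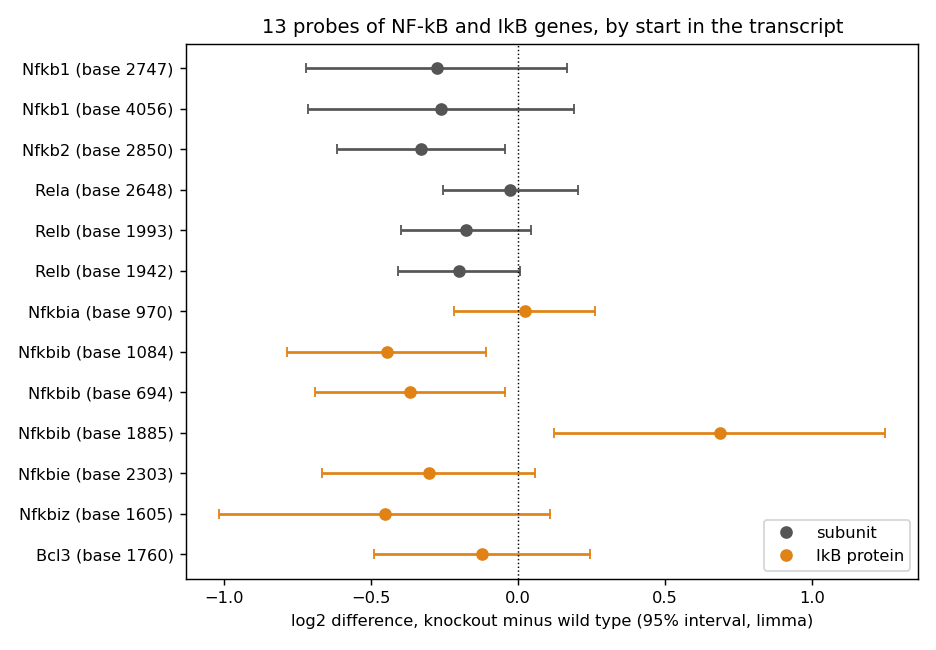
Difference in log2 signal, knockout minus wild-type, for each of the 13 measurable probes of the family, with its 95% interval from limma. The intervals of 9 probes include 0; those of Nfkb2 and of the Nfkbib probes at bases 694 and 1084 lie below it, and that of the Nfkbib probe at base 1885 lies above it.

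The genes of the family also varied together among mice of 1 genotype. Knockout replicate 2 had the highest knockout value in 8 of the 9 genes, against 21.8% of all genes tested. Wild-type replicate 2 had the highest wild-type value in 8 of 9, against 24.0% of all genes, and wild-type replicate 1 the lowest in 8 of 9, against 25.1%. Rela was the exception to both of the high replicates, and Nfkbia the exception to the low one. The median level over the 9 genes was 3.91, 4.20, 3.79 and 3.85 in knockout replicates 1 to 4 and 4.09, 4.57, 4.25 and 4.33 in wild-type replicates 1 to 4. The spread among wild-type mice, 0.49 between the highest and the lowest median, was larger than the median difference between genotypes.

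**Figure D4:**
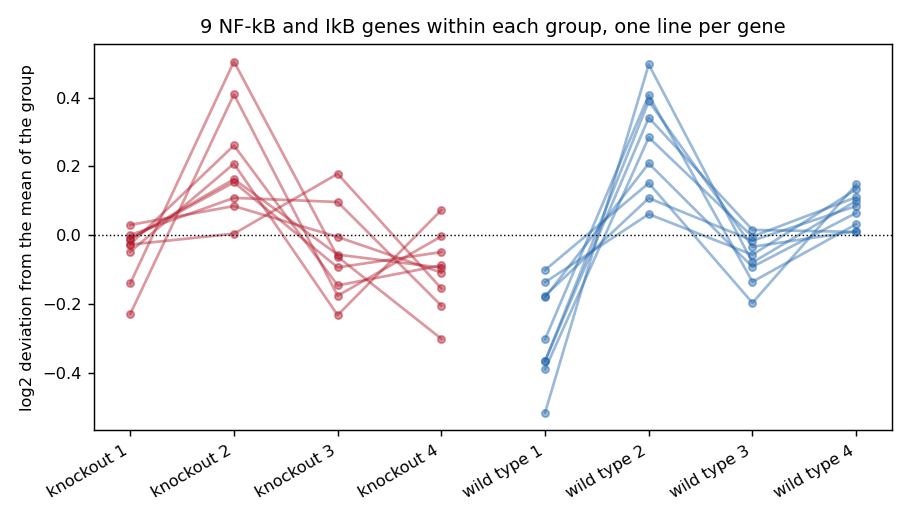
Deviation of each mouse from the mean of its own group, in log2 units, for the 9 measurable genes (1 line per gene), knockout replicates left of wild-type replicates. Replicate 2 is the peak of each group for 8 of 9 genes, and wild-type replicate 1 is the low point for 8 of 9.

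Patterns over the 8 samples were compared with those of other genes after each gene was centred on its own mean. For Nfkb2 the closest of 14440 other genes were Akna, Ctu1 and Nubp1, with root mean square differences of 0.0393, 0.0475 and 0.0553 on the log2 scale, where the pattern of Nfkb2 itself had a size of 0.225. For Nfkbib, whose pattern had a size of 0.293, they were Tmem170b, Stx11 and Rnf34, at 0.0466, 0.0644 and 0.0742. These are descriptions over 8 samples.

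The rest of the pathway was read from lists of genes by role. Their counts and medians stand beside 54.3% lower and a median of -0.03 over all genes tested. Of the kinases and adaptors that lead to IκB phosphorylation, 13 of 19 were lower and 6 higher in knockout lungs, with a median of -0.17, and 0 passed (limma, adjusted p under 0.05). At an unadjusted p under 0.05, 1 was higher and 5 were lower, beside 10.2% and 13.4% of all genes tested. Ikbkb, the IκB kinase of the canonical pathway, read 1.45, 1.62, 1.64 and 1.41 in knockout and 1.73, 1.99, 1.86 and 1.77 in wild-type replicates 1 to 4. The groups did not overlap, which happened for 15.3% of all genes tested, and the difference was -0.31 ± 0.091 (SE; limma, adjusted p = 0.106). Ikbkg, the regulatory subunit NEMO, differed by -0.26 ± 0.082 with groups that did not overlap, the scaffold kinase Ripk1 by -0.30 ± 0.096 and the ubiquitin ligase Traf6 by -0.40 ± 0.15 (SE).

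Of 10 genes for IκB decay and nuclear transport, 8 were lower and 2 higher, with a median of -0.09, and 0 passed. At an unadjusted p under 0.05, 2 were lower, beside 13.4% of all genes tested. Uba3, a subunit of the enzyme that activates NEDD8 for cullin ligases, differed by -0.42 ± 0.12, and the nuclear export receptor Xpo1 by -0.22 ± 0.08 (SE). Rbx1, the RING subunit of those ligases, differed by -0.15 ± 0.07, and the importin Kpna4 by -0.17 ± 0.09 (SE). Of 15 feedback brakes, 12 were lower and 3 higher, with a median of -0.20, and 0 passed. At an unadjusted p under 0.05, 1 was higher and 2 were lower, beside 10.2% and 13.4% of all genes. Nfkbid, a further nuclear IκB protein, read 2.72, 3.33, 2.17 and 2.61 in knockout and 3.10, 4.43, 3.50 and 3.81 in wild-type replicates 1 to 4. Only knockout replicate 2 reached into the wild-type range, and the difference was -1.0 ± 0.32 (SE; limma, adjusted p = 0.126). Commd1, which promotes RELA breakdown, differed by -0.28 ± 0.079 with groups that did not overlap, as in 15.3% of all genes. Cyld, a deubiquitinase that dampens the pathway, differed by 0.35 ± 0.13 and N4bp1, a further inhibitor, by -0.46 ± 0.24 (SE).

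Among 14 measurable direct targets of NF-κB, 10 were lower and 4 higher, with a median of -0.36, and 0 passed. At an unadjusted p under 0.05, 3 were lower, beside 13.4% of all genes tested. Ier3, an immediate early gene, differed by -0.44 ± 0.16 with groups that did not overlap, as in 15.3% of all genes. The lectin receptor Clec4e differed by -1.06 ± 0.41, the neutrophil chemoattractant Cxcl2 by -0.89 ± 0.36 and the cytokine Tnf by -0.79 ± 0.40 (SE). The 4 higher targets were Plau (0.21 ± 0.31), Cd83 (0.18 ± 0.18), Sod2 (0.09 ± 0.11) and Irf1 (0.08 ± 0.19, SE). Cxcl1 and Icam1 differed by -0.06 ± 0.19 and -0.12 ± 0.22 (SE). Cxcl2 read 2.07, 2.92, 2.14 and 1.84 in knockout and 2.62, 4.09, 2.79 and 3.05 in wild-type replicates 1 to 4, with replicate 2 highest in both groups, as in most of the NF-κB and IκB genes.

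Of 5 genes known to depend on Nfkbiz, 0 passed at an adjusted p under 0.05 (limma), beside 0.0613% of all genes tested. At an unadjusted p under 0.05, 0 were called, beside 13.4% of all genes lower and 10.2% higher. With so few genes, these counts are not read as a result about the list. Il12b, a cytokine subunit gene, was well above background on 1 knockout and 3 wild-type arrays and so entered only through wild-type lungs, and no difference is given for it. Of the other 4, 2 were lower and 2 higher, with a median of -0.08. Lcn2, an iron-sequestering protein of neutrophils and epithelium, differed by 0.14 ± 0.074, the cytokine Il6 by -0.41 ± 0.57 and the growth factor Csf2 by -0.24 ± 0.25 (SE). Of 8 inputs to the non-canonical pathway that ends in RelB and p52, 6 were lower and 2 higher, with a median of -0.26, and 0 passed. At an unadjusted p under 0.05, 1 was lower, beside 13.4% of all genes tested. That one was Ltb, lymphotoxin β of lymphocytes, which read 4.14, 4.14, 3.82 and 4.32 in knockout and 4.79, 4.56, 4.37 and 4.70 in wild-type replicates 1 to 4. Its groups did not overlap, as in 15.3% of all genes, and the difference was -0.50 ± 0.13 (SE; limma, adjusted p = 0.0921). Lta differed by -0.27 ± 0.15, the receptor RANK (Tnfrsf11a) by 0.38 ± 0.23 and the B cell factor Tnfsf13b by -0.34 ± 0.22 (SE).

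**Figure D5:**
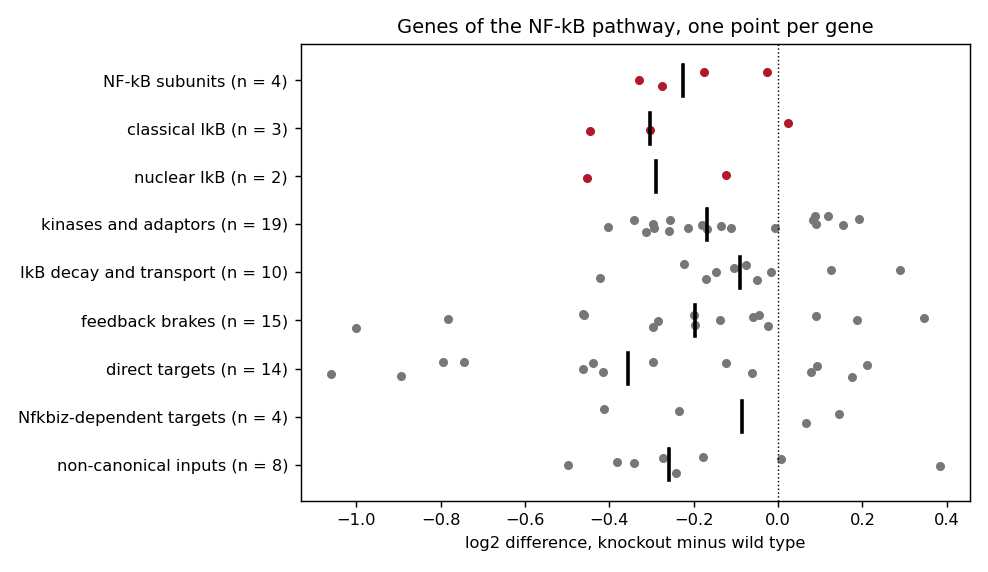
Difference in log2 signal, knockout minus wild-type, for every gene of the 9 lists that was well above background on at least 3 arrays of both groups (1 point per gene, red for the NF-κB and IκB genes, vertical bars for list medians). All 9 medians lie below 0, between -0.36 for direct targets and -0.08 for Nfkbiz-dependent targets, and no gene passed the test. The median over all genes tested was also below 0, at -0.03, with 54.3% of them lower in knockout lungs.

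Marker genes of several cell types also differed between the groups. Monocyte and macrophage markers were lower in 9 of 9 cases, with a mean per mouse of 1.97 to 2.61 in knockout and 2.80 to 3.18 in wild-type lungs. Lymphocyte markers were lower in 11 of 11 (-0.75 to 0.05 in knockout and 0.06 to 0.30 in wild-type lungs), and in neither of these lists did the means of the groups overlap. Neutrophil markers were lower in 5 of 8 (4.50 to 4.94 in knockout and 4.73 to 5.32 in wild-type lungs), and alveolar macrophage markers in 7 of 10 (1.89 to 2.18 in knockout and 2.15 to 2.69 in wild-type lungs). Cardiac muscle markers, which also mark the muscle sleeves of pulmonary veins, were higher in 9 of 9, from 1.63 to 4.92 in knockout and from -0.15 to 4.58 in wild-type lungs, with wild-type replicate 1 at the low end and replicate 2 the highest of each group. Alveolar type 1 markers were lower in 8 of 8 (2.44 to 3.65 in knockout and 3.43 to 4.11 in wild-type lungs), and ciliated cell markers higher in 6 of 6, without overlap (0.98 to 1.72 in knockout and 0.37 to 0.81 in wild-type lungs). Club cell markers were higher in 5 of 5 (5.65 to 7.56 in knockout and 4.62 to 6.67 in wild-type lungs), and dendritic cell markers lower in 4 of 7 (-1.74 to -1.05 in knockout and -1.56 to -0.99 in wild-type lungs). The part of these differences in the NF-κB and IκB values was not tested. Markers of alveolar type 2 cells (5.76 to 6.40 in knockout and 6.16 to 6.42 in wild-type lungs) and of endothelium (3.41 to 3.98 in knockout and 3.47 to 4.00 in wild-type lungs) were present in every sample, as the lung label calls for.

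Promoter sequences were matched for 7 of the 10 genes (not for Nfkb1, Relb or Nfkbiz). A window of 250 bases before to 50 bases after the start held the κB consensus on either strand in 5 of the 7, Nfkb2, Rel, Nfkbia, Nfkbie and Bcl3, against 8.46% of 32851 mouse promoters of the same length. The 5 of 7 counts genes and the 8.46% counts single promoters. Nfkb2 had 3 promoters, all 3 with a match, but the windows of the middle and the most downstream one overlap. The match at 10 to 19 in the middle window and the match at -225 to -216 in the most downstream one are the same bases. Nfkbib and Rela held no match in this window. Of the measurable genes with a match, Nfkb2 differed by -0.33, Nfkbie by -0.30, Bcl3 by -0.12 and Nfkbia by 0.02. Of those without, Rela differed by -0.03 and Nfkbib by -0.45 at its brightest probe, but by 0.69 at base 1885. None passed the threshold, and a link between matches and differences was not tested.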

How the data were processed

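Total RNA from 8 whole lungs was labelled with Cy3 and read on single-colour Agilent arrays, 4 per genotype. Scans were extracted with Agilent Feature Extraction 10.7.1.1, per the submitters' processing notes, and probe coordinates are on mm9, per the file headers. Intensity values of each spot are in the deposited scanner files, among them a background-subtracted processed signal. The authors' deposited value table holds log2 values that tracked log2 processed signal (r above 0.99 for each array) and shared a median of 5.63, as quantile normalization gives. Its full processing is not recorded in the labels.

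Control spots and outlier spots (154 to 245 per array) were left out, spots of a probe averaged, and log2 processed signal set relative to the array's 75th percentile. Probes were kept that exceeded background clearly on at least 3 of a group's 4 arrays. The brightest probe stood for a gene name, which left 24469 genes. Of the family, 13 of 14 probes and 9 of 10 genes were kept, and none was saturated. For arrays the number of samples limits precision.

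Two-sided tests used lmFit and eBayes of limma 3.58.1 (R 4.3.3), with Benjamini-Hochberg adjustment over all genes and a threshold of 0.05. The same fit was run on simulated data with noise drawn independently for each gene. That run does not cover variation that genes share within a mouse. The labels do not say that replicate numbers pair the mice, so the main test used no block. In their deviations from group means, same-numbered samples of replicates 1 to 4 correlated at 0.13, 0.47, 0.01 and -0.29. The best correlation with a sample of another number was 0.27, 0.29, 0.04 and 0.24. These values do not settle whether the numbers pair the samples. The genes and lists were chosen with earlier results of these data known. All genes of the family were named, and of other lists up to 4 with the smallest p. Chuk, Tab1, the direct targets that were higher, Cxcl1 and Icam1 were named in addition, since they went the other way or differed little. For the subunit and the IκB gene with the smallest p, the 3 genes with the most similar pattern were named. Alternatives were normexp background correction, quantile normalization, median centring, other filters on dim probes, the deposited value table, a replicate block, an intensity trend, array weights, probe averages, single probes and leaving out each sample. Promoters are from RefSeq, GRCm38.p6, whose gene coordinates were used for neighbours only. Figures were drawn with matplotlib 3.10.9.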

Additional observations from a re-analysis of the deposited data

How the results depend on the processing

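Under every alternative run, 0 of the NF-κB and IκB genes passed the threshold (limma, adjusted p under 0.05), and 7 to 9 of them were lower in knockout lungs. The number of genes called on the whole array was less stable. Against 15, it was 512 with normexp background correction, 417 with an intensity trend, 126 with probes well above background on all 8 arrays, 3518 with no filter on dim probes, 46 with the replicate number as a block and 9 with probe averages, and it ranged from 1 to 19 with 1 sample left out; the cause was not tested. The replicate block changed no other call. With it, 4 genes of the family had an unadjusted p under 0.05, against 2. The share of all genes at that unadjusted p is not given for the block, under which adjusted calls over all genes also rose, from 15 to 46. The 4 is therefore not read as particular to the family. Differences whose sign turned were those of Nfkbia, at -0.0054 with normexp, -0.035 with quantile normalization, -0.033 with median centring, -0.040 in the deposited value table and from -0.043 to 0.073 with 1 sample left out. Rela turned to 0.0088 with quantile normalization, 0.0084 in the deposited value table and ranged from -0.085 to 0.026 with 1 sample left out. Nfkbib turned to 0.69 at its probe nearest the transcript end. For these the cause was not tested. With a single slide, no slide block could be fitted. Rel is limited by signal over background.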
